A study of Mus musculus with 4 samples.

Results

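Smad1-bound promoters whose sequence holds no run of adenines were examined in mouse embryoid bodies (EBs), floating aggregates of differentiating ES cells, on day 4. The members were chosen from the 10466 deposited sites that both MACS and QESEQ had found in DMSO-treated cells. A site was a member when it overlapped no nuclear tRNA gene, held no run of 7 or more A or of 7 or more T bases anywhere in the interval, and had its centre within 1 kb of the start of any annotated transcript. This left 273 sites. Of the other common sites, 924 lay equally close to a transcript start but held such a run, 641 held no run but lay farther from any start, 8414 were distal with a run, and 214 overlapped a tRNA gene. The farthest member centre lay 1000 bp from a start, and the nearest site without a run that missed the distance rule lay at 1027 bp. The longest run was of 6 bases in 39 members, and it was of exactly 7 bases in 28 of the promoter sites with a run.

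The EBs came from the GFP-Bry ES cell line, in which GFP reports Brachyury, of strain C57BL/6 according to the labels. They were reaggregated and kept for 24 h in DMSO, which served as vehicle, or in 10 µM IWR-1, an inhibitor of Wnt signalling that stabilises Axin. There was 1 Smad1 ChIP library and 1 input chromatin library for each treatment, so differences between treatments could not be tested over replicates. The 5 deposited lists hold peaks and no read counts, and the depth behind a single peak is unknown. Sample labels and list contents disagree for 4 of them. The DMSO lists were recognised by coordinates, since each common site is an interval of the DMSO QESEQ list and overlaps a DMSO MACS peak. Label and content match for the IWR-1 QESEQ list. A further MACS list, called the second MACS list here, is filed with the DMSO ChIP but named for IWR-1. Its name and elimination assign it to IWR-1, so every statement that uses it rests on that assignment.

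Smad1 is a receptor-activated Smad: BMP receptors phosphorylate it, it joins Smad4, and the complex enters the nucleus and binds DNA with other transcription factors. Smad proteins contact short sequences, among them GC-rich elements and the CAGAC box. Many vertebrate promoters lie in CpG islands, stretches rich in G and C in which the CpG dinucleotide has not been depleted, and many housekeeping and developmental genes start in them. Wnt and BMP signals act together in mesoderm and blood formation in EBs.

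The centres of the highest-scored members are shown first, because they set the range of sequences behind the values that follow. Each is 100 bases of mm10 read in the direction of the nearest gene, free of annotated exons, with Smad elements of either strand in capitals, namely the GC-rich palindrome GGCGCC, its relative GGAGCC and the CAGAC box in the form CAGACA. The first 3 had the highest scores among members whose central bases are not exonic, Paox and Tet1 had the highest scores among members with no overlap in either list assigned to IWR-1, and Kansl3 had the highest score among members with GGCGCC.
Cenpu, chr8:46551875-46551974, plus strand: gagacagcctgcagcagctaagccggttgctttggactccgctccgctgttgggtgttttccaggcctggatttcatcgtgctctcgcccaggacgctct
Fut10, chr8:31187196-31187295, plus strand: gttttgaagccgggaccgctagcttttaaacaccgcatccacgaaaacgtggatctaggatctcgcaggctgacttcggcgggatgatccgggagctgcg
Ints10, chr8:68793731-68793830, plus strand: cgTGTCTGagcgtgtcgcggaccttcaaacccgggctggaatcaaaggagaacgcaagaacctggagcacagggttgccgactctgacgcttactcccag
Paox, chr7:140125425-140125524, plus strand: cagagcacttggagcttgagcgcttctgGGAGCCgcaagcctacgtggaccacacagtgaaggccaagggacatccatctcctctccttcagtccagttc
Tet1, chr10:62865406-62865505, minus strand: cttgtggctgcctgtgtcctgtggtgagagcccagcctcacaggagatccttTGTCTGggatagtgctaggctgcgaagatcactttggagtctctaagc
Kansl3, chr1:36369182-36369281, minus strand: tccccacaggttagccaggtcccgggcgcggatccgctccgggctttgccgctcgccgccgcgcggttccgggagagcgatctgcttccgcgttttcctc
The windows of Paox and Tet1 lie in introns of annotated genes, and the other windows lie outside annotated genes. The Kansl3 window was moved by 33 bp from the centre of its site to leave out exonic bases, and its GGCGCC lies outside the bases printed. Neither Cenpu nor Fut10, the members with the highest scores, held any of the Smad elements in the bases shown.

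A set of 10 shorter windows shows a sequence that recurred among the members. AAACCCGG, in capitals, was found by counting all 32896 sequences of 8 letters, with both strands as 1, and was chosen after its values were seen. Each window is 40 bases of mm10 on the strand that carries these letters. The windows are those of the members with the highest scores after Ints10, shown above, where the bases are free of exons, and all 10 members overlapped both lists assigned to IWR-1.
Wwox, chr8:114439611-114439650, plus strand: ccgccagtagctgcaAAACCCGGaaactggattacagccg
Eps15, chr4:109280141-109280180, minus strand: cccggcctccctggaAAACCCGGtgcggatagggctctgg
Arid1a, chr4:133754501-133754540, plus strand: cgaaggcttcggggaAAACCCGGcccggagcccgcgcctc
Zfp609, chr9:65827800-65827839, plus strand: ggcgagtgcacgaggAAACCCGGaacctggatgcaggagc
Tjp3, chr10:81285943-81285982, plus strand: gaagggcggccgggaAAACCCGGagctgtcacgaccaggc
Fcor, chr8:3672364-3672403, plus strand: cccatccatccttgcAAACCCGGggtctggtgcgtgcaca
Prdm15, chr16:97851563-97851602, minus strand: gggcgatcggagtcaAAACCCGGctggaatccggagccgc
Casz1, chr4:148804299-148804338, minus strand: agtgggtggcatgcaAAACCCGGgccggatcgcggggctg
Zbtb7b, chr3:89395000-89395039, minus strand: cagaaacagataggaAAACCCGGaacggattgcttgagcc
Ints4, chr7:97480834-97480873, minus strand: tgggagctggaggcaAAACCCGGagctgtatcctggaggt
In 8 of these windows an A stood just before the capitals. Those of Arid1a, Tjp3, Prdm15 and Zbtb7b lie in introns, and the others lie outside annotated genes, with centres at -64 bp (Wwox), -107 bp (Eps15), -256 bp (Zfp609), -22 bp (Fcor), -110 bp (Casz1) and -102 bp (Ints4) from the nearest start, where negative distances lie before the start.

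For comparison, 4 members show the palindromic GC-rich Smad element GGCGCC, in capitals, in windows of 40 bases of the plus strand. They have the highest scores among members where such a window is free of exons.
Eps15, chr4:109280100-109280139, plus strand: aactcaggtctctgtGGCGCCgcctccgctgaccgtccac
Bcl7c, chr7:127708141-127708180, plus strand: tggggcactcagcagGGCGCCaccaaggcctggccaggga
Prdm15, chr16:97851388-97851427, plus strand: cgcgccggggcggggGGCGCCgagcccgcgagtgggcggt
Zbtb7b, chr3:89394878-89394917, plus strand: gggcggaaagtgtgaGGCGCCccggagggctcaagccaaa
Eps15, Prdm15 and Zbtb7b held both GGCGCC and AAACCCGG in their central 300 bp.

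The members sat close to the starts that defined them. The median distance between the centre of a site and the nearest start was 144 bp. In 195 of 273 members (71.4%, 95% exact binomial interval 65.7% to 76.7%) the centre lay within 250 bp of the start, and 188 sites covered the start itself. Centres before the start were the more common, with 156 of 273 (57.1%, 51.0% to 63.1%). By annotation, 111 centres lay in exons, 88 in introns and 74 outside genes. Intervals here and below cover counting error over sites only.

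**Figure D1:**
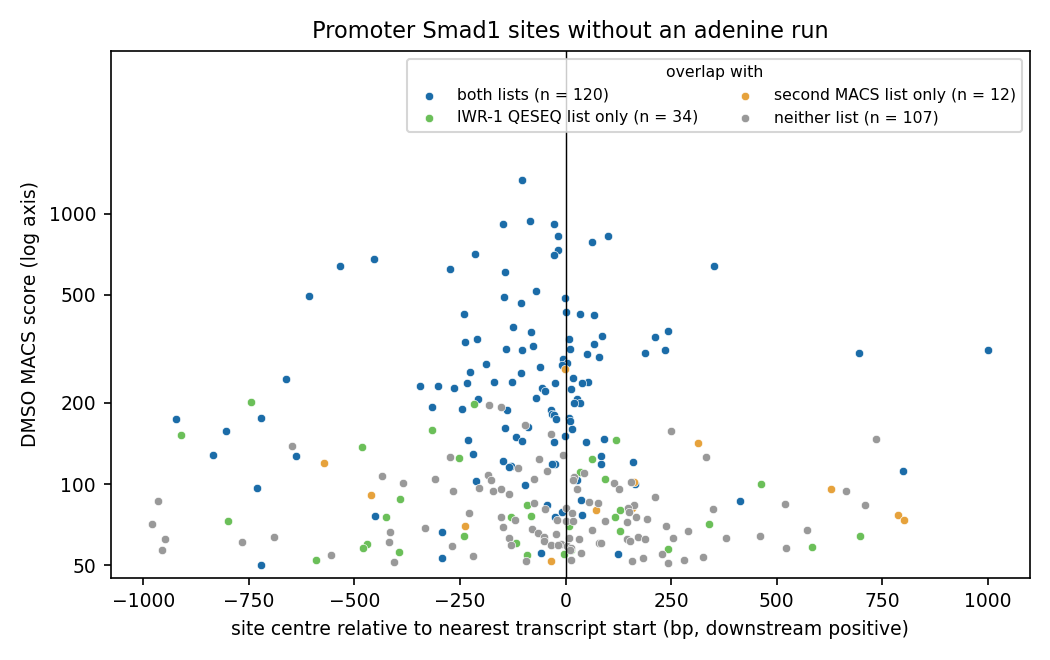
Each point is 1 of the 273 members, placed by the distance of its centre from the nearest transcript start (bp, positive downstream) and by its DMSO MACS score on a log axis, and coloured by overlap with the IWR-1 QESEQ list and the second MACS list. Scores above 200 cluster near the start and nearly all of these sites overlap both lists, while the 107 members in neither list all score below 200.

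Protein-coding genes supplied the nearest start of 214 members (78.4%, 73.0% to 83.1%), and 229 members had a start of a protein-coding gene within 1 kb. Counting starts of protein-coding transcripts alone left 203 members. The nearest start belonged to an rRNA gene in 14 members, an antisense transcript in 8, a lincRNA in 8, a miscellaneous small RNA in 7, a transcript of unsettled status in 7, an snRNA in 3 and a snoRNA in 3. Chromosome 8 held 23 members, the most of any chromosome, and 14 of these were the members at rRNA genes. A single member had a tRNA gene within 2 kb.

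Members had high scores within the DMSO list. The MACS score, which is minus 10 times the log10 of the caller's p-value, was taken from the strongest DMSO MACS peak overlapping the site. Its median over the members was 103 (quartiles 70.0 and 201, range 50.3 to 1333), against 66.6 over all common sites. The medians were 64.3 in distal sites without a run, 66.6 in promoter sites with a run and 65.9 in distal sites with a run, so that the lower quartile of the members lay above the median of each of these classes. Of the members, 104 (38.1%, 32.3% to 44.1%) ranked in the top 5% of the DMSO MACS list, compared with 44 of 641 distal sites without a run (6.86%, 5.03% to 9.11%) and 28 of 924 promoter sites with a run (3.03%, 2.02% to 4.35%). Sites at tRNA genes scored higher still, with a median of 590.4. Members were also wider than the distal sites without a run, with a median width of 482 bp against 308 bp, although a wider interval has more room for a run.

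The member with the highest score, 1333, lay at Cenpu, which encodes a centromere protein, at chr8:46551619-46552231. Fut10, a fucosyltransferase gene, followed with 936, and Ints10, which encodes a subunit of the Integrator complex, with 917. Their centres lay at -103, -85 and -148 bp from the start, outside annotated genes, and all 3 genes are on chromosome 8. The remaining members of the top 10 were those at Gm47305 (912), Smarcd2 (828), Kansl3 (824), Rn7s1 (785), Wwox (731), Eps15 (710.3) and Nfkbiz (700.1). Smarcd2 encodes a subunit of SWI/SNF chromatin remodelling complexes and Kansl3 a subunit of the NSL histone acetyltransferase complex. Wwox encodes an oxidoreductase with WW domains, Eps15 an endocytic adaptor and Nfkbiz a nuclear regulator of NF-κB. Gm47305 and Rn7s1 mark 7SL RNA loci, described with the small RNA genes. All 10 sites overlapped both the IWR-1 QESEQ list and the second MACS list, where Cenpu had a score of 890.0, Fut10 575 and Ints10 385. Scores are not comparable between lists.

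The 5 members next in score that overlapped both lists were those at Syt7 (681), Selenov (641), Arid1a (638), Zfp609 (625) and Mon2 (606). Syt7 encodes a synaptotagmin, Selenov a selenoprotein, Arid1a the DNA-binding subunit of a SWI/SNF complex, Zfp609 a zinc finger protein and Mon2 a protein of Golgi and endosome traffic. The Arid1a and Syt7 sites were centred away from the start, at -534 and -454 bp. Thus 13 of the 15 members with the highest scores had a protein-coding gene as nearest, beside 214 of all 273 members (78.4%).

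Base composition lay close to that of promoters in general. The median GC content of the central 300 bp was 60.7% (quartiles 51% and 66.7%). It was 59% over 300 bp windows centred on the main start of each of 21849 protein-coding genes, and 60% over the 19949 of these windows with no run of 7. In windows 2 kb to either side of the members the median was 45.7%. Promoter sites with a run had a median of 42.3% and distal sites without one 45.3%. The median ratio of observed to expected CpG was 0.676 in members, 0.639 at protein-coding starts without a run and 0.208 in the windows beside the members. The criteria of a CpG island (GC of at least 50% and a CpG ratio of at least 0.6) were met by 150 of 273 members (54.9%, 48.8% to 60.9%), by 51.7% of the protein-coding starts without a run, by 58 of 924 promoter sites with a run (6.28%) and by 26 of 641 distal sites without a run (4.06%). Absence of a long adenine run is itself tied to base composition, so GC content is not independent of the rule.

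**Figure D2:**
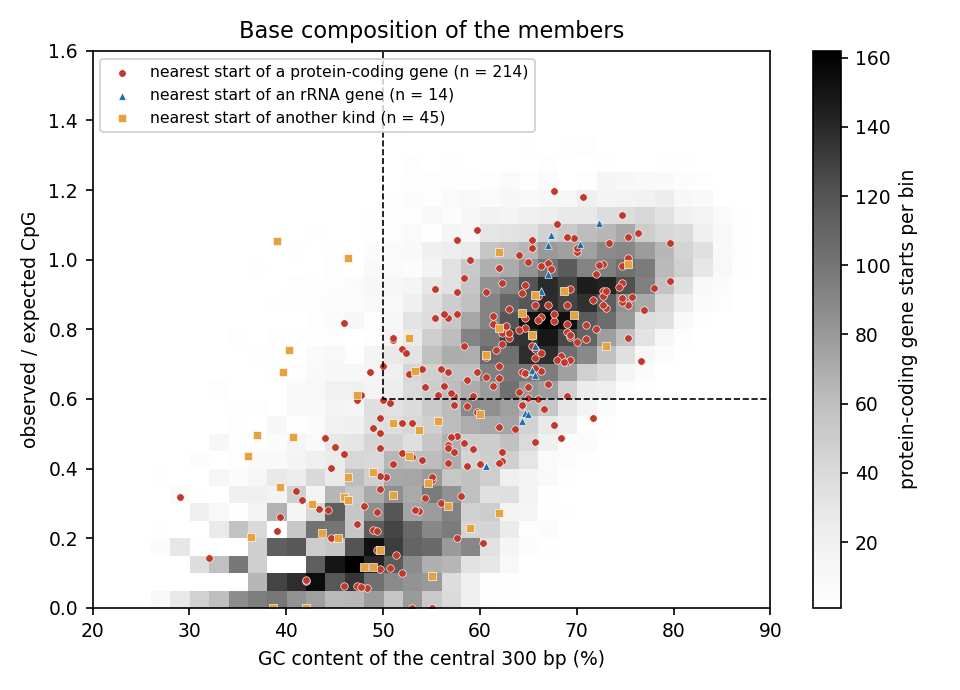
GC content of the central 300 bp (%, x axis) against the ratio of observed to expected CpG (y axis) for the 273 members, coloured by the kind of gene with the nearest start, over a grey count of 300 bp windows at 21849 protein-coding starts. The dashed lines bound the CpG island criteria, met by 150 members, and the members follow both groups of protein-coding starts, CpG-rich and CpG-poor.

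Within the members, those meeting the island criteria had the higher scores, with a median of 128 (quartiles 78.4 and 238) against 83.3 (62.8 and 139.8) in the other 123. Several of the highest-scored members fell outside the criteria, among them Eps15, with a GC content of 50.7% and a CpG ratio of 0.589, and Mon2, with 56.7% and 0.468. At the opposite extreme, the member at Rny1, a Y RNA gene, scored 426 with a GC content of 36.3%. Starts of different genes pointing away from each other on opposite strands, the arrangement of a divergent promoter, were present at 45 members (16.5%, 12.3% to 21.4%) and at 15.2% of protein-coding starts. When starts of protein-coding transcripts alone were counted, the shares were 13 of 273 (4.76%, 2.56% to 8.01%) and 8.83%. These shares have unlike bases: each comparison window holds a protein-coding start, whereas 203 of the 273 members had one within 1 kb.

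Over all members, Smad elements occurred at shares close to those of promoters generally, while the GC-rich forms had higher shares in members outside the island criteria. GGCGCC or GGAGCC lay in the central 300 bp of 141 of 273 members (51.6%, 45.5% to 57.7%), in 48.2% of protein-coding starts without a run and in 20.7% of the windows beside the members. GGCGCC alone was held by 55 members (20.1%, 15.6% to 25.4%) and 18.5% of those starts, and GGAGCC by 114 members (41.8%, 35.8% to 47.9%) and 39.5%. Among windows meeting the island criteria the share with either form was 62.7% in members and 65.2% at protein-coding starts. In the windows that did not meet them it was 38.2% (29.6% to 47.4%) in members and 28.2% at starts. GGCGCC alone was in 8.94% (4.55% to 15.4%) of such members and 4.12% of such starts. CAGACA was held by 44 members (16.1%, 11.96% to 21.03%), against 19.1% of starts without a run, 26.0% of the windows beside the members and 26.5% of distal sites without a run. The palindrome GTCTAGAC was in no member, which allows a share of up to 1.34%, and in 0.115% of starts. All searches covered both strands, and a match describes the letters only.

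Elements of common promoter factors showed a different balance. GGGCGG, the SP/KLF element, was in 122 members (44.7%, 38.7% to 50.8%) and 49.5% of starts without a run. CCGGAAG, the ETS element, was in 14 members (5.13%, 2.83% to 8.45%) against 11.9% of these starts, and TGACGT, the core of the cAMP response element, in 10 (3.66%, 1.77% to 6.63%) against 8.3%. The full form TGACGTCA was in 4 members (1.47%, 0.401% to 3.71%) and 2.42% of starts. CCAAT was in 77 members (28.2%, 22.9% to 33.9%) and 35.3% of starts. GCGCATGC, the NRF1 element, was in 14 members (5.13%, 2.83% to 8.45%) and 3.17% of starts. The TCF/LEF sequences CTTTGAT and CTTTGTT were in 10 (3.66%, 1.77% to 6.63%) and 14 (5.13%, 2.83% to 8.45%) members, against 2.67% and 4.23% of starts. The GATA sequence AGATAA was in 23 (8.42%, 5.42% to 12.4%) against 7.68%.

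**Figure D3:**
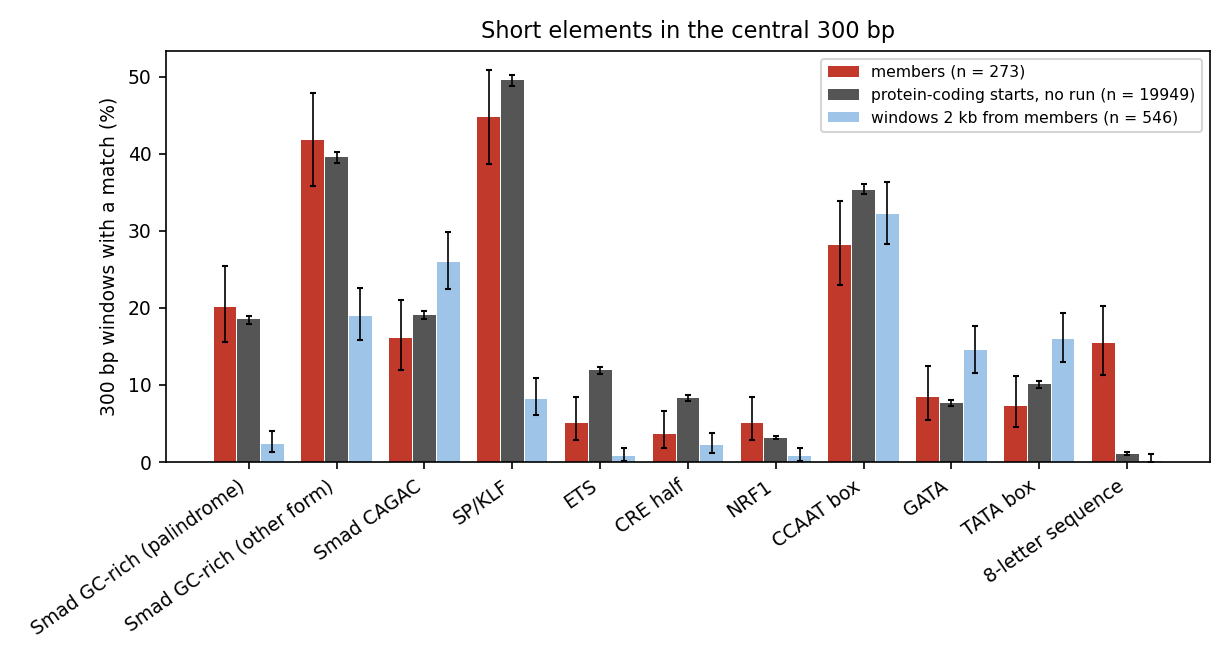
Share of 300 bp windows (%) holding each short element in the members, at protein-coding starts without a run of 7 and in windows 2 kb to either side of the members, with 95% exact binomial intervals as bars. The GC-rich Smad elements stand level with promoters and above the flanks, while the 8-letter sequence AAACCCGG reaches 15.4% in members and 1.1% at starts.

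AAACCCGG had the widest gap to protein-coding starts of all 8-letter sequences, counted over the members nearest to protein-coding genes, where it was in 41 (19.2%) against 1.11% of all protein-coding starts. It was present in 42 of 273 members (15.4%, 11.3% to 20.2%) and in 1.1% of protein-coding starts without a run. The share was 1.56% in distal sites without a run, 0.866% in promoter sites with a run and 0.183% in the windows beside the members. The sequences next in order overlapped it in letters or position: AAAACCCG was in 15.9% of the members nearest to protein-coding genes against 0.81% of starts, and CCCGGAGC in 15.4% against 5.35%. Another group of letters, GAGCATGC, was in 8.88% against 1.32%. As these sequences were picked for their difference, their shares are a description with no test.

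Matches of AAACCCGG lay nearer to the middle of the windows in members than at starts. Of 42 matches in members, 31 (73.8%) were within 75 bp of the site's centre, with a median distance of 36.5 bp, against 138 of 242 matches (57.0%) and a median of 61 bp from the centre of the windows at protein-coding starts. An A preceded the 8 letters in 33 of 42 matches (78.6%), against 71 (29.3%) at these starts, and GGAT followed within 15 bases in 13 (31.0%) against 10 (4.13%). The related sequence AAACCTGG was in 16 members (5.86%, 3.39% to 9.34%) and 1.09% of starts without a run. Its share was 3.74% (2.41% to 5.52%) in distal sites without a run, an interval that overlaps that of the members, and 2.01% in the windows beside the members. Either form was held by 54 members (19.8%, 15.2% to 25.0%), 5.3% of distal sites without a run and 2.18% of starts without a run. Members with AAACCCGG included Ints10, Wwox, Eps15, Arid1a and Zfp609 among the 15 with the highest scores. The median score of the 42 was 173 (quartiles 103 and 330.2), against 95.9 (67.4 and 191) for the other 231. From the lowest to the highest of 4 bands of equal member number by score, the letters were in 6 of 69, 5 of 68, 15 of 68 and 16 of 68 members.

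**Figure D4:**
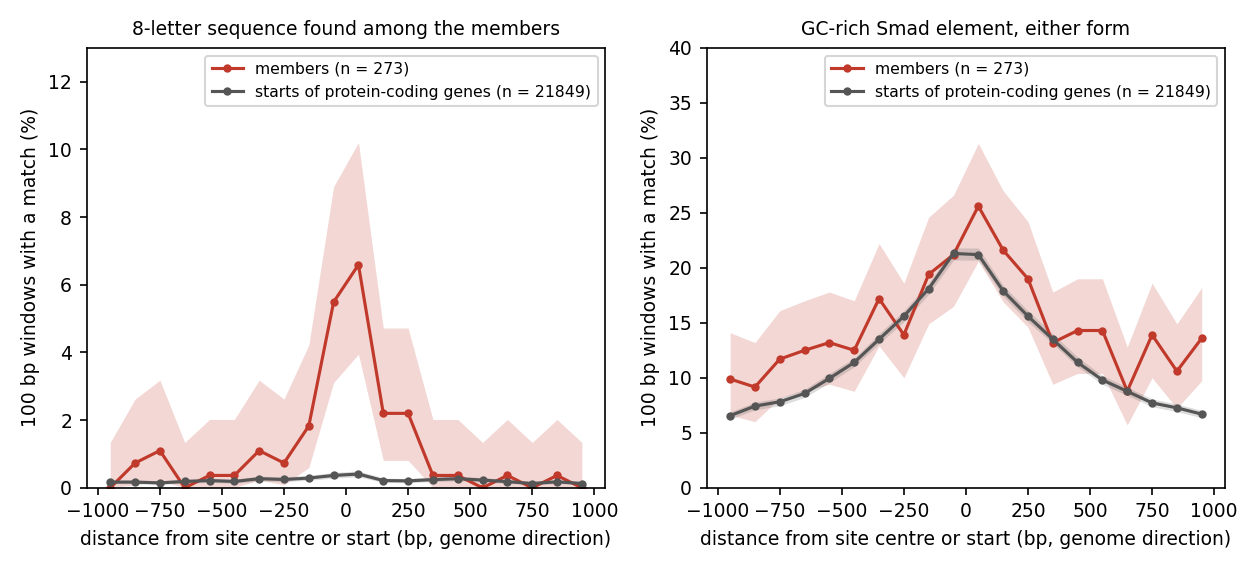
Share of 100 bp windows (%) with a match, by distance from the centre of the 273 members or from the start of 21849 protein-coding genes (bp, genome direction), with 95% exact binomial intervals as bands; the left panel shows AAACCCGG and the right panel either GC-rich Smad element. AAACCCGG peaks at 6.59% of members in the window 50 bp from the centre, while the Smad elements rise broadly at members and starts alike.

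Members were called more often with IWR-1 than common sites overall. The IWR-1 QESEQ list overlapped 154 of 273 members (56.4%, 50.3% to 62.4%), against 37.0% of all common sites. The second MACS list overlapped 132 (48.4%, 42.3% to 54.5%), against 25.8% of all common sites. Either list overlapped 166 members (60.8%, 54.7% to 66.6%; all sites 44.4%) and both lists 120 (44.0%, 38.0% to 50.1%; all sites 18.4%). QESEQ shares were 42.6% (39.4% to 45.9%) in promoter sites with a run and 30.1% (26.6% to 33.8%) in distal sites without one. Fewer cells with Smad1 at a site, less Smad1 at the site in each cell and a weaker library cannot be told apart in these lists.

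The share called rose with the DMSO score. In the same 4 bands the QESEQ list overlapped 19 of 69 members (27.5%, 17.5% to 39.6%) at scores up to 70.0, 22 of 68 (32.4%, 21.5% to 44.8%) up to 103, 46 of 68 (67.6%, 55.2% to 78.5%) up to 201, and 67 of 68 (98.5%, 92.1% to 100.0%) above that. The second MACS list gave 6, 20, 38 and 68 members. Below the median score 41 of 137 members were called by QESEQ (29.9%, 22.4% to 38.3%), and above it 113 of 136 (83.1%, 75.7% to 89.0%). The only member of the top band without a QESEQ call was that at Rny3, which overlapped the second MACS list.

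Within these score bands the QESEQ share of members was above that of promoter sites with a run only from 103 to 201. For all scores above 103 it was 83.1% against 74.6% (62.9% to 84.2%). The second MACS list gave 77.9% against 67.6% (55.5% to 78.2%) there. These pooled shares are not matched for score: 68 of 136 members were in the highest band, against 18 of 71 promoter sites with a run. From 103 to 201 the second MACS list gave 55.9% against 58.5%, and in the highest band 100% against 94.4%. Promoter sites with a run were called by QESEQ at 34.8% (30.7% to 39.1%), 48.2% (42.6% to 53.7%), 66.0% (51.7% to 78.5%) and 100% (81.5% to 100%) from the lowest to the highest band. Distal sites without a run gave 22.1%, 31.8%, 59.5% and 83.3%. Distal sites with a run gave 30.3%, 40.3%, 47.1% (42.6% to 51.8%) and 90.9%, above the members in the lower 2 bands and below their interval in the band from 103 to 201. In that band the second MACS list overlapped 57.9% of these distal sites and 55.9% of members. In the lowest band it overlapped 8.7% (3.26% to 18.0%) of members, a lower share than in each of the other 3 classes, among them promoter sites with a run at 19.6% (16.3% to 23.4%) and distal sites without one at 17.4% (13.8% to 21.6%). The members' share over all scores was therefore read beside their scores: 136 of 273 members scored above 103, against 71 promoter sites with a run and 72 distal sites without one, up to the highest member score.

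**Figure D5:**
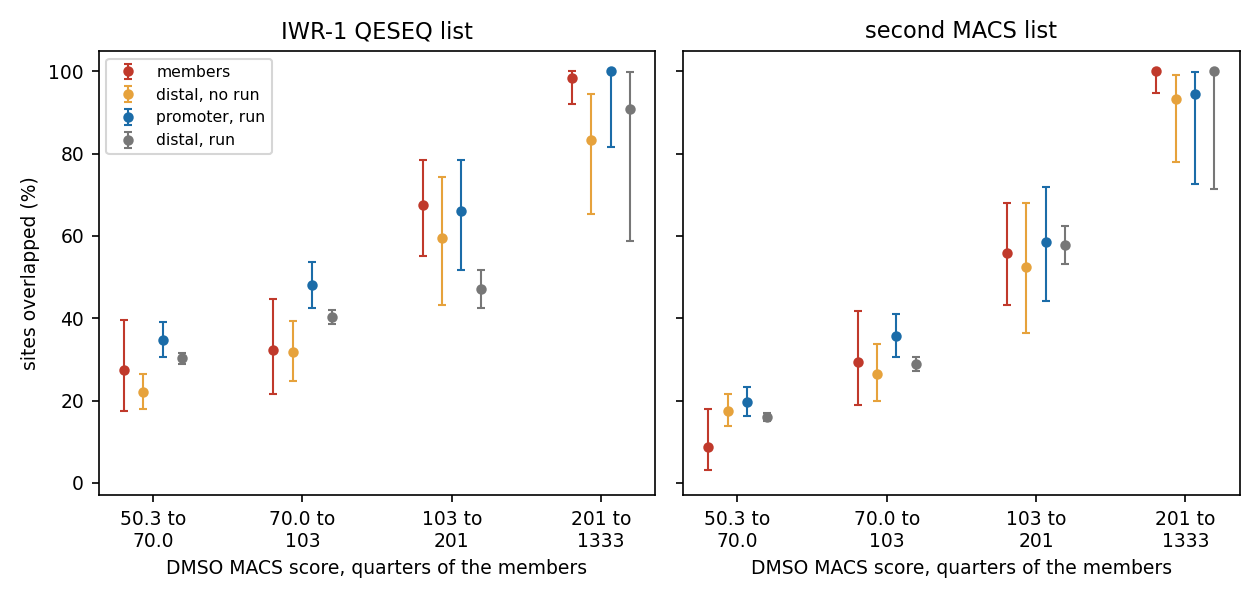
Share of sites (%) overlapped by the IWR-1 QESEQ list (left) and by the second MACS list (right) in 4 bands of DMSO MACS score, set by the quartiles of the members, for members and for 3 other classes of common sites, with 95% exact binomial intervals. All classes rise with score, and members in the highest band reach 98.5% and 100%.

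At the called members the median width of the QESEQ peak was 498 bp with IWR-1 against 548 bp for the DMSO site. The IWR-1 peak was the narrower in 99 of 154 members (64.3%, 56.2% to 71.8%). The sites were chosen as intervals of the DMSO QESEQ list, so an even split is not the share to be found without a change. No share over other sites stands beside it, and the difference in width was not tested.

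Calls were also counted by sequence class among the members, and no difference between classes was tested. QESEQ called 96 of 150 members meeting the island criteria (64%, 55.8% to 71.7%) and 58 of the other 123 (47.2%, 38.1% to 56.4%). Members with AAACCCGG were called in 32 of 42 cases (76.2%, 60.5% to 87.9%) and the others in 122 of 231 (52.8%, 46.2% to 59.4%). From the lowest to the highest score band the counts were 1 of 6, 3 of 5, 12 of 15 and 16 of 16 with the letters, and 18 of 63, 19 of 63, 34 of 53 and 51 of 52 without, so that the share with the letters was the lower in the lowest band. Members with CAGACA were called in 25 of 44 cases (56.8%) and those without in 129 of 229 (56.3%), and the second MACS list overlapped 17 (38.6%, 24.4% to 54.5%) and 115 (50.2%, 43.6% to 56.9%) of them. Members with a GC-rich Smad element were called in 88 of 141 (62.4%, 53.9% to 70.4%), and those without in 66 of 132 (50%, 41.2% to 58.8%), and the second MACS list overlapped 72 (51.1%, 42.5% to 59.6%) and 60 (45.5%, 36.8% to 54.3%) of them. Of the 141, 13 lay in the array of 5S rRNA genes described below and are not independent.

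Members with no overlap in either list numbered 107, and the strongest of them lay at Paox, a polyamine oxidase gene, with a score of 197. Tet1, which encodes an enzyme that oxidises 5-methylcytosine, followed with 193 at chr10:62865100-62865811. Gm9694, with 157, and 1700066J03Rik, with 153, also ranked high among them. The centres of these sites lay at -182, -152, 249 and -35 bp. None of these 4 held GGCGCC or AAACCCGG in the central 300 bp, and Tet1 alone held CAGACA. Tet1 also had another member at a separate start, chr10:62887298-62887696, with a score of 160.2, which overlapped both lists and had a score of 114 in the second MACS list. The lists thus differed between the starts of a single gene.

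Members with GGCGCC were led by Kansl3 (824), Eps15 (710.3), Usp3 (489), Bcl7c (466) and Prdm15 (424). Usp3 encodes a ubiquitin protease, Bcl7c a SWI/SNF-associated protein and Prdm15 a zinc finger protein of the PR domain family. All 5 overlapped both lists. Over the 55 members with GGCGCC, QESEQ called 37 (67.3%, 53.3% to 79.3%) and the second MACS list overlapped 30 (54.5%, 40.6% to 68.0%). Over the other 218 members the counts were 117 (53.7%, 46.8% to 60.4%) and 102 (46.8%). Of the 55, 10 lay in the 5S array.

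Lists of signalling and lineage genes were too short to be told from protein-coding genes as a whole, of which 240 of 21938 (1.09%) had a member within 1 kb of a start. None of 35 BMP targets and feedback genes had one, which allows a share of up to 10.0%. The same held for 51 Wnt pathway genes (up to 6.98%), 21 mesoderm and streak regulators (up to 16.1%), 27 blood and endothelial regulators (up to 12.8%), 19 cardiac regulators (up to 17.6%) and 20 pluripotency regulators (up to 16.8%). These counts leave out Smad1 sites with an adenine run, at tRNA genes or centred farther from a start. The paper reports Smad1 binding at the BMP targets Id1, Id2 and Id3. Among 15 BMP receptors and Smads (1 member, 6.67%, 0.169% to 31.9%), Acvrl1, a type I receptor of endothelial cells, had a member with a score of 51.0, centred at 243 bp in an intron and found in neither list.

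Chromatin genes were among the lists with members. Of 99 chromatin modifiers, 4 (4.04%, 1.11% to 10.0%) had one: Smarcd2 and Arid1a, given above, Kmt2c, a histone H3 lysine 4 methyltransferase gene, with 306, and Arid1b, a paralogue of Arid1a, with 114. All but Arid1b overlapped both lists, and Arid1b overlapped neither. The Kmt2c member lay -979 bp from its start and nearer to the start of a lincRNA. Of 391 zinc finger genes of the Zfp series, 4 (1.02%) had a member: Zfp609 (625), Zfp395 (272), Zfp521 (83.8) and Zfp708 (62.9), and the first 3 overlapped both lists. Of 28 RNA polymerase subunit genes, Polr3e (312) and Polr1d (289.9) had a member found in both lists (7.14%, 0.877% to 23.5%). The Polr1d member lay -457 bp from its start and nearer to the start of Lnx2. The Polr3e centre lay 1000 bp into the gene, in an intron, with a GC content of 44.7%.

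Lists of protein synthesis and turnover genes had shares whose intervals all held the 1.09% of protein-coding genes. Among 86 cytosolic ribosomal protein genes, Rps29 and Rps28 had a member (2.33%, 0.283% to 8.15%). The Rps29 member was the one at Rn7s1, which starts close by, and that of Rps28 scored 72.9, and was in neither list. The same site lay at the start of Ndufa7, a respiratory complex I gene and the only one with a member among 55 NADH dehydrogenase and ATP synthase genes. Of 36 tRNA synthetase genes, Iars2 (74.4) and Lars (70.1) had a member (5.56%, 0.68% to 18.7%). The Lars site overlapped only the second MACS list and the Iars2 site neither. Single members were found for 84 splicing factor genes (1.19%; Srsf1, 112, in both lists), 39 proteasome genes (2.56%; Psmb8, 78.2, in neither) and 78 cell cycle genes (1.28%; Cdc34, 94.6, in neither). No member was found at 78 mitochondrial ribosomal protein, 67 replication-dependent histone, 68 translation factor, 80 DNA replication and repair or 15 snoRNA host genes. Of 1190 genes with a microRNA symbol beginning in Mir, Mir762, at the Bcl7c promoter, and Mir410 (73.9) had one. That share, 0.168% (0.0204% to 0.606%), has an interval below the 1.09% of protein-coding genes. A gene was counted through any of its annotated starts, and the number of starts per gene was not matched between these groups. The nearest start belonged to an annotated microRNA in 2 further members, Gm47305 (912) and Gm25591 (112).

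Some genes of small RNAs were among the strongest members. A list of small nuclear, 7SK, Y, vault, 7SL, RNase P, RNase MRP and 5S RNA genes was drawn up by gene symbol, and 24 of its 213 annotated entries, 180 of which are 5S genes, had a member. Rmrp, Rnu3b4 and Rnu3b1 are each annotated under 2 entries with a member, so the 24 hold fewer distinct symbols. Apart from 5S rRNA, 8 members lay at genes of this list. Rn7s2 and Rn7s1 encode 7SL RNA, the RNA of the signal recognition particle, and scored 912 and 785. Gm47305, named above, is an annotated microRNA at the Rn7s2 locus. Rny1 and Rny3, which encode Y RNAs, scored 426 and 266, and Rmrp, the RNA of RNase MRP, 344. Rn7s1, Rn7s2, Rny1 and Rmrp overlapped both lists. Rpph1, the RNA of RNase P, scored 80.0 and overlapped the second MACS list alone; it was named after its value was seen. Rnu3b4 and Rnu3b1, which encode U3 RNA, scored 53.6 and 53.4 and were in neither list. In all, QESEQ called 4 of the 8 (50%, 15.7% to 84.3%), and the second MACS list overlapped 6 (75%, 34.9% to 96.8%). A further 8 members, counted after the values were seen, had as nearest an annotated snRNA, snoRNA or miscellaneous small RNA gene whose symbol is not in the list. Among these the snRNA genes Gm24019 and Gm24859 scored 316 and 302, and QESEQ called 6 (75%, 34.9% to 96.8%) and the second MACS list overlapped 5 (62.5%, 24.5% to 91.5%). The near-identical 7SL copies share sequence, so reads of Rn7s1 and Rn7s2 may not be separable.

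The 14 members at rRNA genes formed a single cluster, chr8:123543400-123624384, the array of 5S rRNA genes. These repeated genes share sequence, and the 14 sites are not independent. Their scores ran from 50.3 to 239 with a median of 79.2, and their widths from 499 to 2627 bp. QESEQ called 12 of 14 (85.7%, 57.2% to 98.2%) and the second MACS list overlapped 11 (78.6%, 49.2% to 95.3%). GGCGCC was in 71.4% of them and AAACCCGG in none. Between 47.5% and 96.6% of their bases were masked as repeats, compared with a median of 7.34% over all members. Without them, QESEQ called 54.8% (48.5% to 61.0%) of the remaining 259 members.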

How the data were processed

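The data are 1 library of Smad1 ChIP and 1 of input for each of DMSO and IWR-1 (10 µM, 24 h). Per the submitters' processing notes, CASAVA 1.8, Bowtie2 2.1.0 and MACS 1.0.1 were used on mm10; QESEQ's version is not given in the sources used here. The authors deposited peak positions and, in the MACS lists, a score per peak, of at least 50. Peaks from QESEQ come without a score. Positions were counted from 0 in the lists and are given counted from 1.

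Overlap was counted from 1 bp. The score of a site is the highest among overlapping DMSO MACS peaks. Starts came from GENCODE M21, with 141730 transcripts, and the 403 tRNA genes, sequences and repeat masking from the NCBI release of GRCm38, which is mm10. A member's gene is that of the nearest start, protein-coding genes coming first at equal distance. Both strands of the central 300 bp were searched for elements, and so were windows of equal length at the main start of each protein-coding gene and 2 kb to either side of members. Intervals are 95% exact binomial (Clopper-Pearson) intervals. Named members were the 10 with the highest scores, the 5 highest in neither IWR-1 list, the 5 next highest in both, the 5 highest with GGCGCC and up to 6 genes of each list. The members and lists were chosen with earlier results of these data known. No tests were run, with 1 library per group.

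Calculations ran in Python 3.11.15 (scipy 1.17.1, numpy 2.4.6, pysam 0.24.0) and plots in matplotlib 3.10.9. The overlap, run and element steps were tested on simulated data, and all 10000 simulated sites were classed as planted.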

Additional observations from a re-analysis of the deposited data

How the results depend on the processing

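Alternatives covered the list, the overlap rule, the score, the distance to a start, the kind of transcript, the length of the run and the window searched. The number of members stayed within 1.5 times of 273 for both other distances, both other run lengths and protein-coding transcripts, from 203 to 339, and was 144 at a score of at least 100. The share called by QESEQ, 56.4%, was 48.4% with the second MACS list, 44.0% with both lists required, 46.9% with a reciprocal overlap of 50% and 80.6% at a score of at least 100; the other alternatives gave 53.1% to 60.8%. The share in the second MACS list, 48.4%, was 75.7% at that score. A stricter island rule, GC of at least 55% and a CpG ratio of at least 0.65, gave 47.3% in place of 54.9%. The share with a GC-rich Smad element, 51.6%, was 63.0% in whole sites and 42.5% in the central 200 bp, and that with CAGACA, 16.1%, was 26.7% and 11.0%, as the length searched differed. The share with AAACCCGG, 15.4%, was 22.2% at a score of at least 100, and that at divergent starts, 16.5%, was 4.76% with protein-coding transcripts alone. The cause of these shifts was not tested beyond the change in length or list. Medians of GC content and score moved by less than 1 SD over members. Leaving out 5S rRNA genes, counting members nearest to protein-coding genes, every setting for AAACCCGG, the other sets of members for the share in the second MACS list, that list above and below the median score, and the divergent starts of coding transcripts were chosen after seeing the data. No paired analysis was possible because the results come from no test and each treatment has 1 library.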

Other observations

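Some members lay at genes of signalling pathways outside the lists. Those described here were picked by hand after their values were seen, so they give no share for such genes. Members at other signalling genes are not described. Among these, Insr, Stat2, Stat6, Efnb3 and Ednrb did not hold AAACCCGG, and Nfatc4 did. Rbpj, the DNA-binding effector of Notch signalling, had 2 members, with scores of 224 and 128, and both held AAACCCGG and overlapped both IWR-1 lists. Maml3, a coactivator of the same pathway, had a member with a score of 75.5 that also held AAACCCGG and overlapped the QESEQ list alone, and Notch3 had one with a score of 147 in neither list. Spry1, a feedback inhibitor of receptor tyrosine kinase signalling, had a member with AAACCCGG, a score of 143 and overlap with both lists. Sos1, an activator of Ras, scored 189 with AAACCCGG, and was in both lists. Rspo1, a secreted enhancer of Wnt signalling, scored 93.9 and Gli1, an effector of Hedgehog signalling, 95.8, and neither site was in an IWR-1 list.

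Members sometimes came in pairs. In 5 of 268 genes more than 1 member had that gene's start as nearest: Rbpj, Tet1, Lnpep, Lamb2 and Ptprr. Both Lnpep sites, with scores of 179 and 79.1, held AAACCCGG and overlapped both lists, whereas at Lamb2 the site with a score of 175 overlapped both and the site with 59.3 neither. At Ptprr the order was the reverse: the site with 60.46 overlapped neither list, and the site with 52.43 overlapped the QESEQ list alone.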
